A study of Bos taurus with 6 samples.

Results

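The 31 genes described here encode enzymes that make and remodel the glycerophospholipids of cell membranes, including the mitochondrial lipid cardiolipin. They were taken as a fixed list of gene symbols covering the synthesis of phosphatidylcholine, phosphatidylethanolamine, phosphatidylserine, phosphatidylinositol and cardiolipin. All 31 were found among the 22839 different symbols of the count files, and 29 of them passed the filter on low counts, as did 15039 of all 23015 rows. Counts came from the longissimus thoracis muscle (LT) of 6 Hanwoo (Korean native cattle) steers, with 1 library for each steer. The high group held 3 steers with a high number of fine marbling particles (NFMP), labelled 3-8, 10-8 and 10-9 and aged 32.5, 33.8 and 34.5 months. The low group held 3 steers with a low NFMP, labelled 3-1, 3-3 and 10-16 and aged 37.8, 33.7 and 35.4 months. Marbling particles are the flecks of intramuscular fat seen on the cut muscle face, and the study chose the steers by image analysis of that face. In the paper the sequenced high-NFMP steers also had a higher marbling score and a larger rib eye area. NFMP and these traits therefore cannot be told apart here. All steers were raised conventionally on commercial feed, and neither group received a treatment.

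Glycerophospholipids are built from glycerol 3-phosphate, which is acylated to phosphatidic acid. From there the pathway divides. In one branch phosphatidic acid is activated to CDP-diacylglycerol, the precursor of phosphatidylinositol and, in the inner mitochondrial membrane, of cardiolipin, a lipid that the respiratory chain complexes bind. In the other branch, the Kennedy pathway, choline or ethanolamine is phosphorylated, activated with CTP and joined to diacylglycerol. Muscle fibres are rich in mitochondria and sarcoplasmic reticulum membrane, and adipocytes coat their lipid droplets with a phospholipid monolayer, so both cell types of marbled muscle use these enzymes.

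The libraries held between 16283873 and 17192750 counted reads, and the 31 genes took between 0.0419% and 0.0465% of them. Levels are given below as normalized counts, that is, counts brought to a common effective library size. The libraries were made from the 3′ ends of transcripts, so levels are compared between steers and not between genes. In the comparison of the groups a gene was called past the threshold, which follows the paper's methods, where its unadjusted p was below 0.05 and its fold change (FC) exceeded 2 in either direction. The muscle fibre markers were present in every library, the 8 fast fibre markers with a summed level between 275803 and 402697. Of 12 adipocyte markers, 5 had an unadjusted p below 0.05, all 5 with higher levels in the high-NFMP group (41.7%, against 11.5% of all 15039 tested rows), but none was past the threshold. Their summed level was between 8597 and 17064 in the high-NFMP steers and between 8212 and 9031 in the low-NFMP steers, and steer 3-8 held the highest value. Because whole muscle was sequenced, fewer cells of a type and less RNA per cell cannot be told apart.

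**Figure D1:**
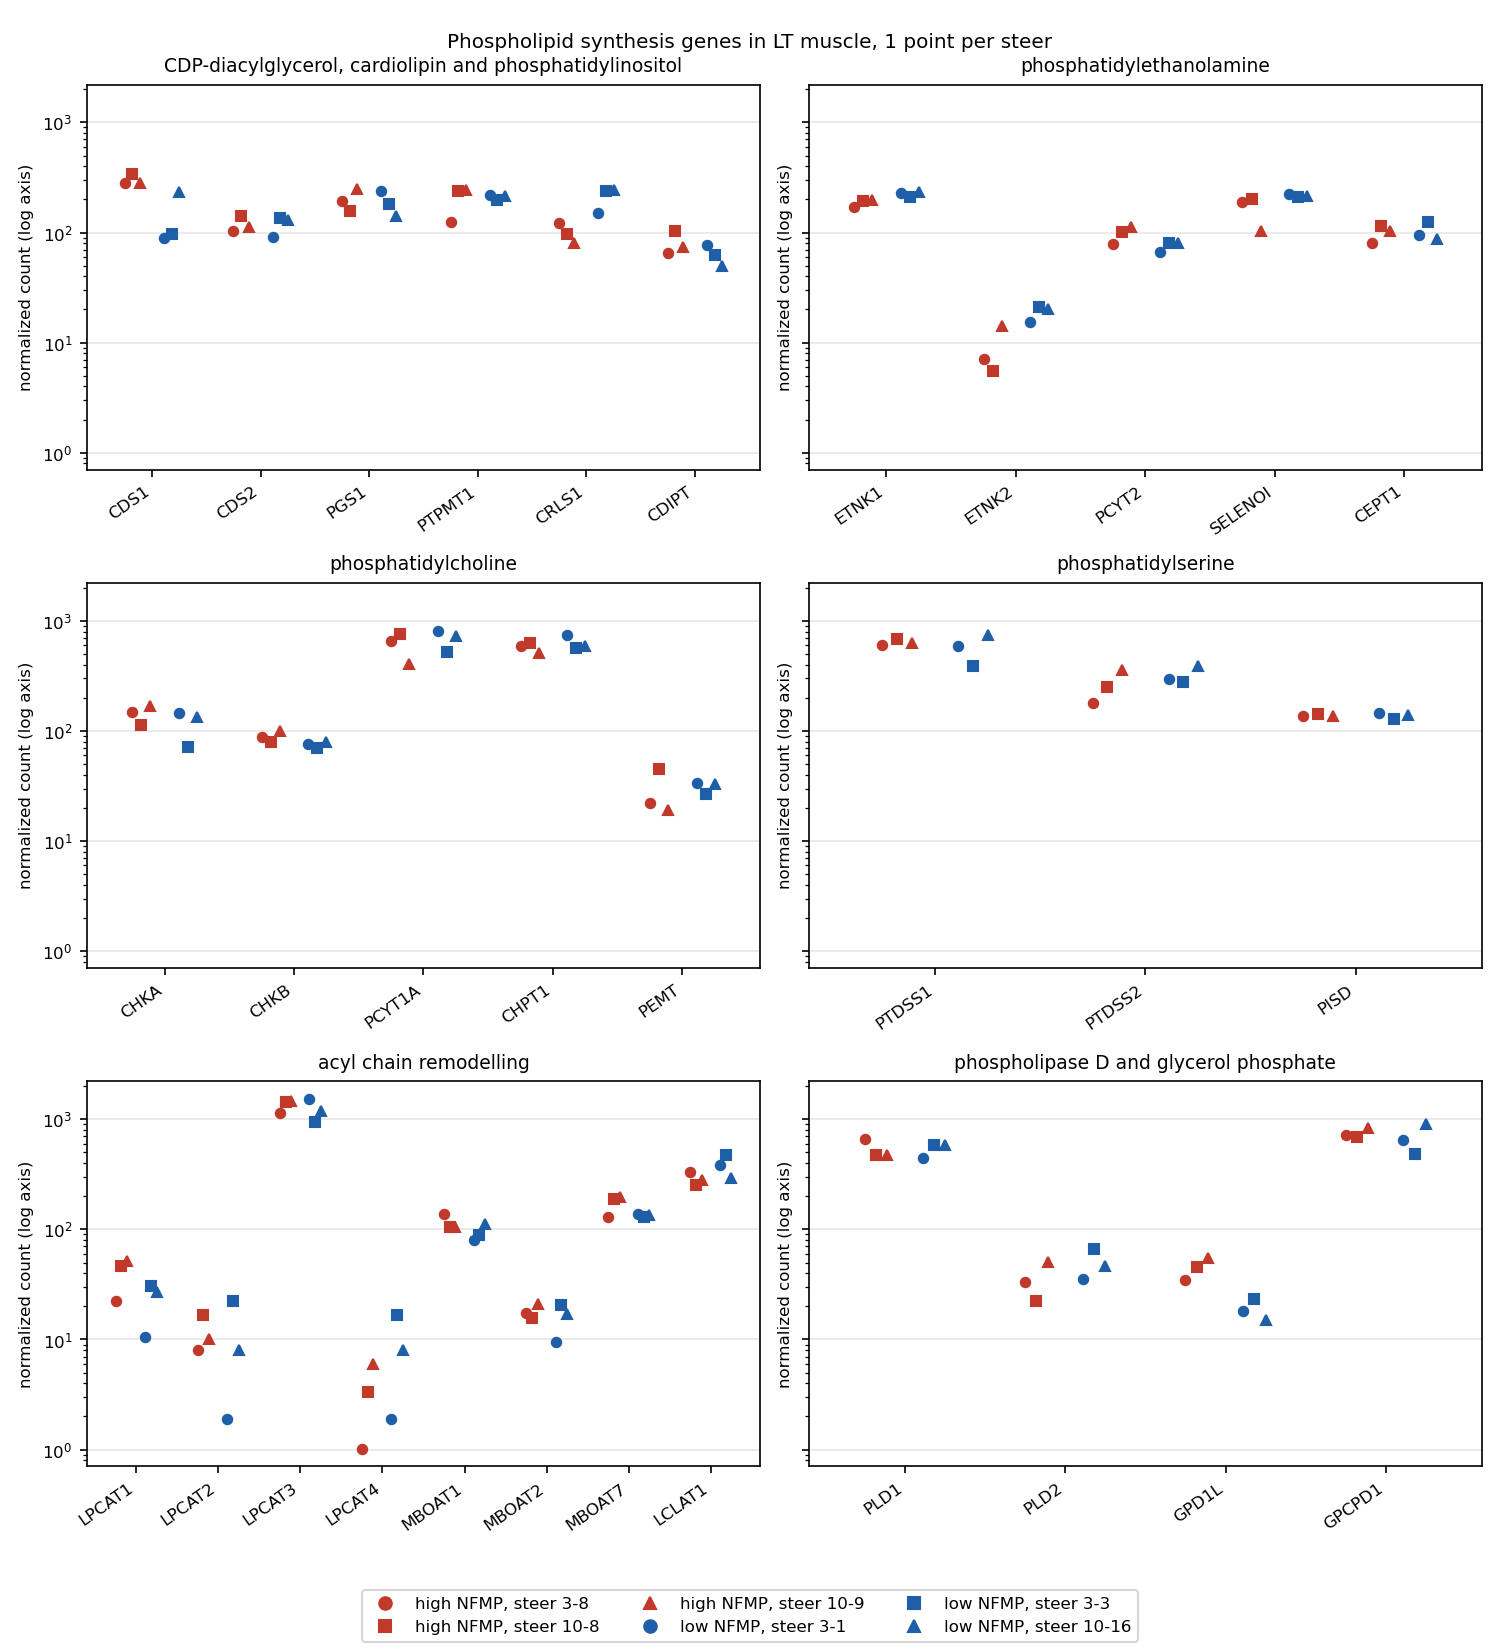
Normalized counts (log axis) of the 31 genes in each of the 6 steers, in panels by step of synthesis. Red points are high-NFMP and blue points are low-NFMP steers, with 1 symbol per steer. CDS1, CRLS1, ETNK2 and GPD1L show groups that do not overlap, while most other genes have interleaved points.

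Between the high- and low-NFMP groups, 3 of the 29 tested genes were past the threshold. CDS1 and GPD1L were higher and CRLS1 was lower in the high-NFMP group. This is 10.3% of the tested genes, against 3.9% of all 15039 tested rows, of which 2.53% were higher and 1.36% lower. Higher rows were 65.0% of those past the threshold with all steers and 49.2% without steer 3-8. The list is not independent of these libraries, because the paper names CDS1, CRLS1, ETNK2 and GPD1L as differentially expressed genes from the same steers. It lists them under glycerophospholipid metabolism, a pathway term that did not reach a p below 0.05 in the paper. Of the 25 tested genes that the paper does not name, 0 were past the threshold and 0 had an unadjusted p below 0.05 in the quasi-likelihood test of edgeR, and DESeq2 and limma after quantile normalization also gave 0 and 0. This depended on the steers. Without steer 3-8, 1 of 26 such genes was past the threshold (LPCAT1), against 4.83% of all tested rows in that fit. In the same fit 3 had an unadjusted p below 0.05 by edgeR (LPCAT1, MBOAT7 and LCLAT1). A single gene had such a p without steer 10-9 (PTDSS2) and without steer 10-16 (LCLAT1). The same held with the number before the hyphen of the label as a term (PTDSS2). The share of all rows at this p was not counted in these fits. No gene of the 29 had an adjusted p below 0.05 by edgeR, where 0.685% of all tested rows did, while 3 (10.3%) had an unadjusted p below 0.05, against 11.5% of all tested rows. The lowest adjusted p was 0.098, for CRLS1, and by DESeq2 this gene alone was below 0.05. The median log2 fold change of the 29 genes was 0.0036, against 0.018 over all tested rows, and the median absolute value was 0.27 against 0.26. An absolute log2 fold change below 0.5 was found for 24 of the 29 (82.8%), against 76.9% of all tested rows.

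**Figure D2:**
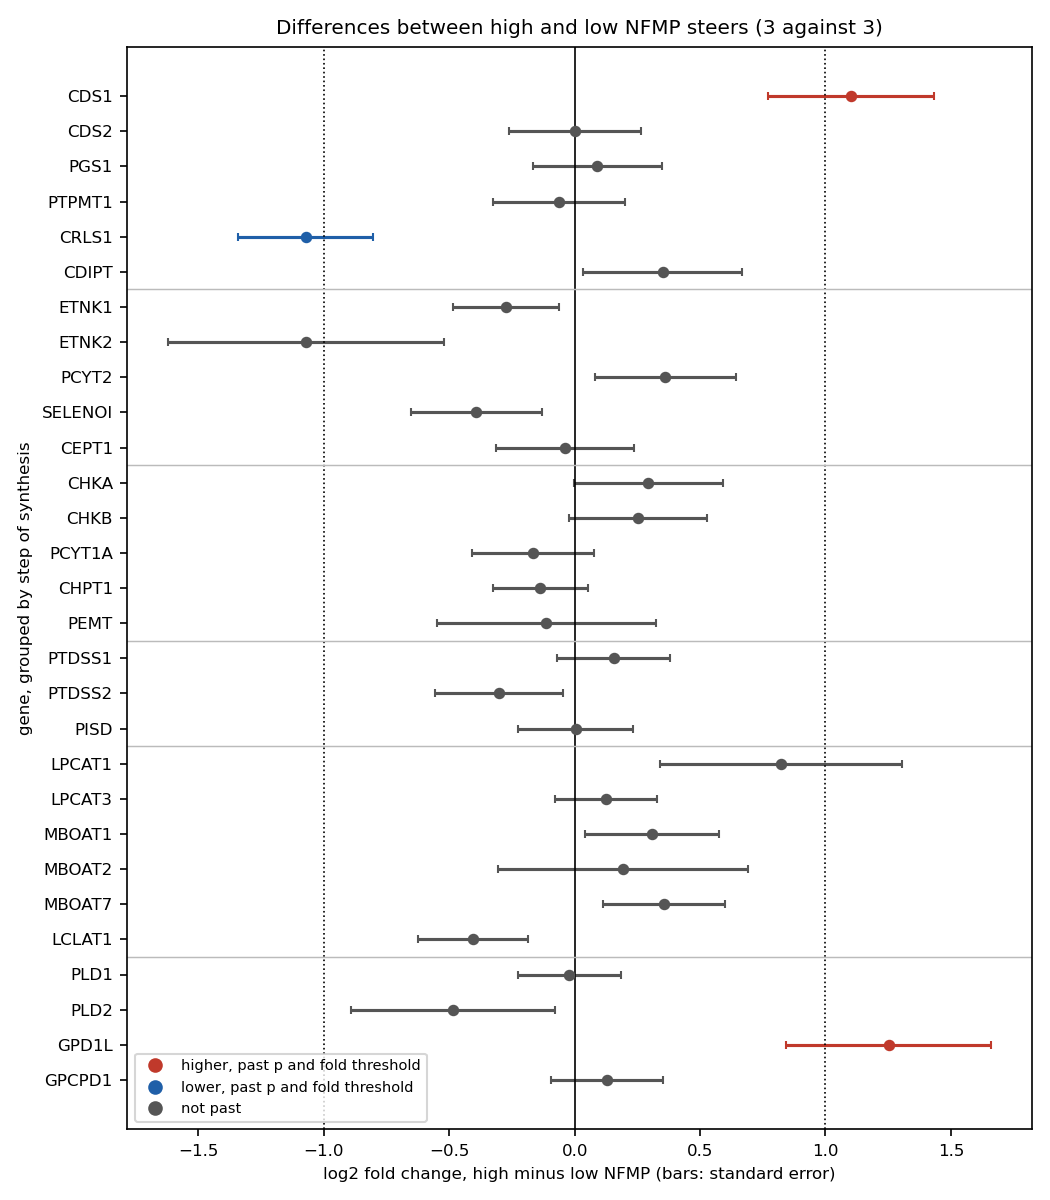
Log2 fold change between the high- and low-NFMP groups (3 steers each) for the 29 tested genes, with bars of 1 standard error and dotted lines at a FC of 2 in either direction. CDS1 and GPD1L in red lie above 1, CRLS1 in blue lies below -1, and ETNK2 lies below -1 with a bar as wide as 0.55.

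In the endoplasmic reticulum, CDP-diacylglycerol is made by CDP-diacylglycerol synthase 1 (CDS1) or synthase 2 (CDS2), while mitochondria have a synthase of their own, TAMM41, which is not among the 31 genes. CDS1 stood at 279.7, 341.2 and 281.8 normalized counts in the high-NFMP steers 3-8, 10-8 and 10-9. In the low-NFMP steers 3-1, 3-3 and 10-16 it stood at 89.0, 97.2 and 235.2. The groups did not overlap, but steer 10-16 lay much nearer to the high-NFMP steers than to the other two of its own group. The group levels were 300.9 ± 34.9 (SD, n = 3) and 140.5 ± 82.2 (SD, n = 3), giving FC = 2.14, or 1.10 as log2 fold change (standard error 0.33, unadjusted p = 0.00559 and Benjamini-Hochberg adjusted p = 0.21 by edgeR). The relative spread of CDS1 in the low-NFMP group, 58.5%, was the largest of any tested gene of the list in either group. Without steer 10-16 the log2 fold change was 1.72 and the adjusted p was 0.0209 by edgeR, the lowest of a range up to 0.607 over all other fits. Without steer 3-1 or 3-3 the log2 fold change was 0.86 or 0.89, below the limit.

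The label numbers 3 and 10 that come before the hyphen are not explained in the sources used here. Among steers with the number 3, CDS1 was at 279.7 in the high-NFMP steer and at 89.0 and 97.2 in the low-NFMP steers. Among those with the number 10, it was at 341.2 and 281.8 in the high-NFMP steers and at 235.2 in the low-NFMP steer. CDS1 was thus higher in the high-NFMP group within each number, by a smaller step among the steers numbered 10. With this number as a term, the log2 fold change was 0.98 (unadjusted p = 0.00302 by edgeR), and with age as a term it was 1.00 (unadjusted p = 0.0539 by edgeR), neither past the threshold. Quantile normalization of log2(count + 1), followed by an equal-variance test of each gene by itself across all genes, gave 1.23 with an unadjusted p of 0.0528, also not past the threshold.

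CDS2, the second synthase, had nearly equal group levels. It was at 103.4, 142.2 and 112.3 normalized counts in the high-NFMP steers and at 91.9, 135.1 and 130.2 in the low-NFMP steers. The groups overlapped throughout, and the log2 fold change was 0.0019 (standard error 0.26, unadjusted p = 0.994 by edgeR). The log2 ratio of CDS1 to CDS2 within each steer was between 1.26 and 1.44 in the high-NFMP group and between -0.48 and 0.85 in the low-NFMP group. The difference between the group means of this ratio was 1.23 (standard error 0.39), with p = 0.1 by a two-sided exact permutation test, the smallest p that 3 steers against 3 allow, and 0.133 after Benjamini-Hochberg adjustment over 4 such ratios. These 4 ratios were chosen after the values were seen.

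Cardiolipin itself is made in the mitochondrion in 3 steps from CDP-diacylglycerol that TAMM41 forms there. PGS1 forms phosphatidylglycerol phosphate, the phosphatase PTPMT1 turns it into phosphatidylglycerol, and cardiolipin synthase 1 (CRLS1) joins phosphatidylglycerol to another CDP-diacylglycerol. Only the gene for the last of these steps passed the threshold. CRLS1 was at 121.6, 96.7 and 80.2 normalized counts in the high-NFMP steers 3-8, 10-8 and 10-9, and at 150.2, 236.9 and 241.3 in the low-NFMP steers 3-1, 3-3 and 10-16. All high-NFMP steers were below all low-NFMP steers, with steers 3-8 and 3-1 the nearest to each other. The means were 99.5 ± 20.8 (SD, n = 3) and 209.5 ± 51.4 (SD, n = 3), that is, FC = 0.475, or -1.07 as log2 fold change (standard error 0.27, unadjusted p = 0.00122, adjusted p = 0.098 by edgeR). The effect was thus close to the fold change limit, and without steer 10-9, 3-3 or 10-16 the log2 fold change was -0.93, -0.98 or -0.93 and no longer past it. The unadjusted p by edgeR was at most 0.009 in these fits.

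CRLS1 also separated the groups within each label number. Among the steers numbered 3 it was at 121.6 against 150.2 and 236.9, and among those numbered 10 at 96.7 and 80.2 against 241.3. With the label number as a term the log2 fold change was -1.06, and with age as a term it was -1.46 (adjusted p = 0.101 by edgeR). DESeq2 gave a log2 fold change of -1.07 with an adjusted p of 0.02, the lowest of a range up to 0.436 over all other fits. According to RefSeq's genes on ARS-UCD2.0, the long noncoding RNA gene LOC112449307 overlaps CRLS1 in position. It had between 11 and 31 counts in a library, where CRLS1 had between 80 and 256, and its log2 fold change was -0.051 (unadjusted p = 0.919 by edgeR). No gene in that table overlaps CDS1, GPD1L or ETNK2.

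The other enzymes of the cardiolipin route differed little between the groups. PGS1 was between 156.7 and 247.7 normalized counts in the high-NFMP steers and between 142.3 and 237.3 in the low-NFMP steers, and the log2 fold change was 0.09 (standard error 0.26). PTPMT1 was at 236.7 and 245.7 in steers 10-8 and 10-9 and between 199.0 and 220.1 in the low-NFMP steers, but at 123.6 in steer 3-8, and its log2 fold change was -0.063 (standard error 0.26). Steer 3-8 was thus the low value of PTPMT1, as it was the high value of the adipocyte markers, and whether these are related was not tested. TAMM41, named here for its role after its values were seen, lay between 61.1 and 67.9 in the high-NFMP steers and between 65.6 and 90.7 in the low-NFMP steers, with overlap (log2 fold change -0.28, standard error 0.29, unadjusted p = 0.36 by edgeR). CDIPT, the phosphatidylinositol synthase, which uses CDP-diacylglycerol of the endoplasmic reticulum, showed a log2 fold change of 0.35 (standard error 0.32, unadjusted p = 0.287 by edgeR).

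PGS1 overlaps the axonemal dynein gene DNAH17 in ARS-UCD2.0. The DNAH17 counts were 170, 128 and 225 in steers 3-8, 10-8 and 10-9 and 191, 171 and 132 in steers 3-1, 3-3 and 10-16. Those of PGS1 were 190, 141 and 247, and 248, 196 and 141. The steers had nearly the same order in both genes. The overlap is one of whole gene positions, and shared exons were not examined. No source says if strand was used in counting, and how many reads were counted on both genes was not measured. The level of PGS1 is therefore uncertain. DNAH17 was picked out after its values were seen. The log2 ratio of CRLS1 to PGS1 was lower in the high-NFMP group by a mean difference of -1.16 (standard error 0.53, exact permutation p = 0.1, adjusted p = 0.133), and its group ranges nearly touched, at -0.66 in steers 3-8 and 3-1.

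**Figure D3:**
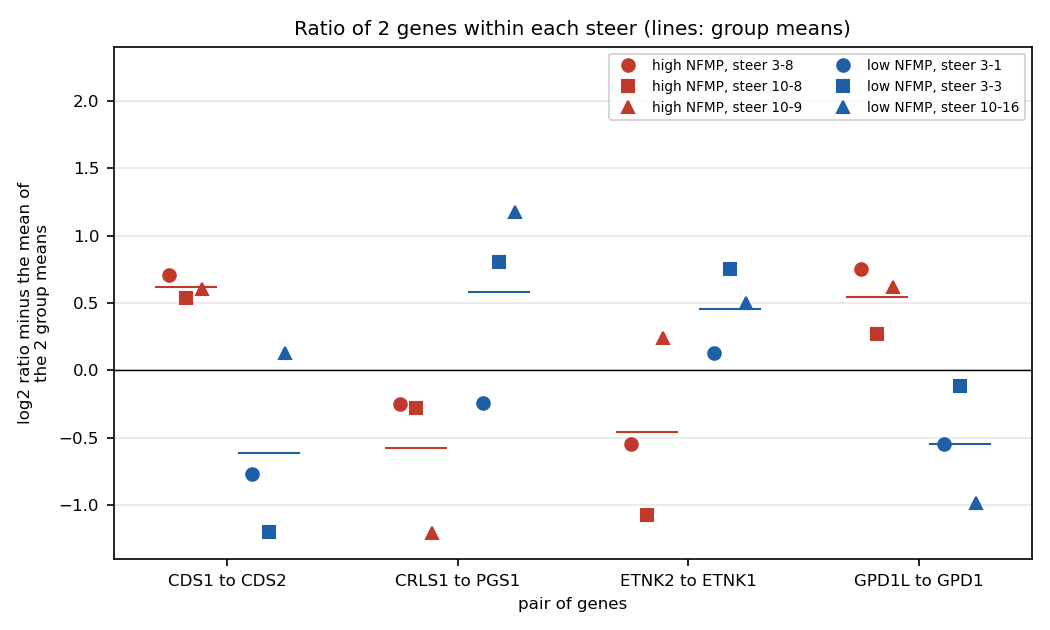
Log2 ratio of a pair of genes within each steer, shown as the distance from the mean of both group means, for 4 pairs. Red points are high-NFMP steers, blue points are low-NFMP steers and short lines are group means. CDS1 to CDS2 and GPD1L to GPD1 are higher in each high-NFMP steer, CRLS1 to PGS1 is lower in each by the narrowest of gaps, and ETNK2 to ETNK1 overlaps.

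Ethanolamine enters phosphatidylethanolamine through ethanolamine kinases 1 and 2 (ETNK1 and ETNK2), the cytidylyl transferase PCYT2 and the phosphotransferases SELENOI and CEPT1. None of the 5 genes was past the threshold, but 3 of them, ETNK1, ETNK2 and SELENOI, stood lower in each high-NFMP animal than in all low-NFMP ones. Groups that did not overlap were found for 7 of the 29 genes (24.1%), against 17.1% of all tested rows. Of these 7, 3 stood higher in the high-NFMP group (7.97% of all tested rows did) and 4 stood lower (9.16%). Without the 4 genes that the paper names, the share was 3 of 25 (12%).

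ETNK2 was the gene with the fewest reads among these 5, with 7, 5 and 14 counts in steers 3-8, 10-8 and 10-9 and 16, 23 and 20 counts in steers 3-1, 3-3 and 10-16. The counts of steers 10-9 and 3-1 almost met. At 8.90 ± 4.52 (SD, n = 3) against 18.9 ± 3.18 (SD, n = 3) normalized counts, its log2 fold change was -1.07 (standard error 0.55, unadjusted p = 0.0703 by edgeR), so its difference was as large as that of CRLS1 but did not pass the p limit. It passed the threshold after quantile normalization with limma (log2 fold change -1.20, unadjusted p = 0.0417), with the equal-variance test of each gene across all genes (the same value, unadjusted p = 0.0451) and without steer 10-9 (-1.55, unadjusted p = 0.034 by edgeR). Without steer 10-8, 3-3 or 10-16 it was at -0.79, -0.98 or -0.99 and further from the p limit (unadjusted p = 0.219, 0.157 or 0.159 by edgeR).

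ETNK1 differed by a small and even step. It was at 170.2, 192.3 and 195.6 normalized counts in the high-NFMP steers and at 230.6, 208.2 and 235.2 in the low-NFMP steers, and the log2 fold change was -0.27 (standard error 0.21, unadjusted p = 0.219 by edgeR). The log2 ratio of ETNK2 to ETNK1 overlapped between the groups, with a mean difference of -0.92 (standard error 0.42, exact permutation p = 0.2). SELENOI, a selenoprotein of the endoplasmic reticulum, was at 187.5, 203.4 and 103.3 against 225.8, 209.1 and 213.0. Steer 10-9 alone held the low value, and without it the log2 fold change of SELENOI was -0.13, compared with -0.39 (standard error 0.26) in all steers. PCYT2, which catalyses the step between the kinases and SELENOI, had the other sign, with a log2 fold change at 0.36 (standard error 0.28), and CEPT1 was at -0.038 (standard error 0.27).

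The genes of phosphatidylcholine synthesis showed no difference past the threshold. PCYT1A, the cytidylyl transferase that limits the rate of this pathway, was at 657.7, 766.8 and 406.2 normalized counts in the high-NFMP steers and at 800.9, 520.1 and 734.0 in the low-NFMP steers. The groups overlapped, with steer 10-9 the lowest of all 6, and the log2 fold change was -0.17 (standard error 0.24, unadjusted p = 0.502 by edgeR). The choline kinases CHKA and CHKB had log2 fold changes of 0.29 (standard error 0.30) and 0.25 (standard error 0.28). CHKB did not overlap between the groups, but the gap between 80.0 in steer 10-8 and 79.8 in steer 10-16 was under a single count. CHPT1, which completes phosphatidylcholine, was at -0.14 (standard error 0.19), and PEMT, which makes it by methylating phosphatidylethanolamine, was at -0.11 (standard error 0.44) with only 19 to 41 counts in a library.

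CHPT1 overlaps the meiotic gene SYCP3 in ARS-UCD2.0. SYCP3 was counted between 374 and 718 times in a library of this muscle and had a log2 fold change of -0.43 (unadjusted p = 0.046 by edgeR), and how many reads were counted on both genes was not measured. This neighbour, too, was picked out after its values were seen. Overlaps of this kind concerned 15 of the 31 genes, and for 5 of them (PGS1, CRLS1, CHPT1, PISD and LPCAT3) the overlapping gene was itself tested.

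Phosphatidylserine is made by exchange of the head group of phosphatidylcholine by PTDSS1 or of phosphatidylethanolamine by PTDSS2, and is decarboxylated to phosphatidylethanolamine in the mitochondrion by PISD. Log2 fold changes were 0.16 (standard error 0.22) for PTDSS1, -0.30 (standard error 0.25) for PTDSS2 and 0.0036 (standard error 0.23) for PISD. PISD hardly varied at all. It lay between 136.4 and 142.2 normalized counts in the high-NFMP steers and between 128.6 and 145.4 in the low-NFMP steers, and its relative spread of 2.36% and 6.24% compared with medians of 19.5% and 19.9% over the tested genes of the list. PTDSS2 varied more, from 178.4 in steer 3-8 to 357.0 in steer 10-9 within the high-NFMP group and up to 391.7 in the low-NFMP steer 10-16. Its log2 fold change was -0.57 without steer 10-9 and -0.53 with the label number as a term (unadjusted p = 0.0412 and 0.0371 by edgeR). Without steer 3-8 it was -0.088.

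Acyl chains are exchanged after synthesis by the lysophospholipid acyltransferases. Of the 8 listed here, 6 were tested and none was past the threshold. LPCAT1, an acyltransferase for lysophosphatidylcholine, was at 22.3, 46.7 and 52.2 normalized counts in the high-NFMP steers and at 10.5, 30.5 and 27.3 in the low-NFMP steers. Steer 3-8 fell among the low-NFMP steers, and the log2 fold change was 0.82 (standard error 0.48, unadjusted p = 0.11 by edgeR). Without steer 3-8 it rose to 1.11 and was past the threshold (unadjusted p = 0.0439 by edgeR). It fell to 0.48 without steer 3-1 and to 0.50 with the label number as a term (unadjusted p = 0.343 and 0.345 by edgeR).

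LPCAT3 prefers polyunsaturated acyl chains and was counted between 1025 and 1602 times in a library, the deepest coverage of any gene of the list. Its log2 fold change was 0.13 (standard error 0.20, unadjusted p = 0.55 by edgeR), and no difference was detected. LCLAT1, which can reacylate lysocardiolipin, was at 335.4, 255.6 and 282.8 against 387.5, 473.8 and 295.8 normalized counts. Steers 3-8 and 10-16 crossed between the groups, and the log2 fold change was -0.41 (standard error 0.22, unadjusted p = 0.0857 by edgeR), the smallest p among the genes that the paper does not name. It was at -0.52 (unadjusted p = 0.0476 by edgeR) without steer 3-8 and at -0.53 (0.0395) without steer 10-16, but at -0.23 (0.367) without steer 3-3. MBOAT7, which places arachidonic acid in phosphatidylinositol, showed a log2 fold change of 0.36 (standard error 0.24), MBOAT1 of 0.31 (standard error 0.27) and MBOAT2 of 0.19 (standard error 0.50). LPCAT2 and LPCAT4 were removed by the filter, with 2 to 24 and 1 to 18 counts in a library, and steer 3-3 held the highest count of both.

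The remaining genes stand at the supply and return ends of the pathway. GPD1L, a relative of the cytosolic glycerol 3-phosphate dehydrogenase GPD1, was at 34.5, 45.6 and 55.2 normalized counts in the high-NFMP steers 3-8, 10-8 and 10-9. In the low-NFMP steers 3-1, 3-3 and 10-16 it was at 18.2, 23.1 and 15.1. Each high-NFMP steer was above each low-NFMP steer, also within each label number. With means of 45.1 ± 10.4 (SD, n = 3) and 18.8 ± 4.03 (SD, n = 3), it had FC = 2.38, or 1.25 as log2 fold change (standard error 0.41, unadjusted p = 0.00794, adjusted p = 0.238 by edgeR). GPD1L was past the threshold in all 16 other fits, with log2 fold changes between 1.10 and 1.42, although it rested on only 15 to 55 counts in a library. Its adjusted p was between 0.165 and 0.519 in those fits.

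Steer 3-8, with the highest summed adipocyte level of 17064, had the lowest GPD1L level of that group, and without it the log2 fold changes of GPD1L and CDS1 were 1.41 and 1.15. The adipocyte sums of the other two high-NFMP steers were 10717 and 8597, against 8212 to 9031 in the low-NFMP steers, and the part of the adipocyte markers in these differences was not tested. GPD1, the dehydrogenase for which GPD1L is named, was at 6683 ± 2024 (SD, n = 3) against 5787 ± 547 (SD, n = 3) normalized counts, with 0.21 as log2 fold change (standard error 0.23). The log2 ratio of GPD1L to GPD1 was higher in every high-NFMP steer, by a mean difference of 1.09 (standard error 0.29, exact permutation p = 0.1, adjusted p = 0.133).

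Phospholipase D makes phosphatidic acid from phosphatidylcholine. PLD1 was between 470.4 and 656.7 normalized counts in the high-NFMP steers and between 448.8 and 589.5 in the low-NFMP steers, and the log2 fold change was -0.021 (standard error 0.20). The log2 fold change of PLD2 was -0.48 (standard error 0.41), and it ranged from -0.81 to -0.21 with a steer left out. GPCPD1, which splits glycerophosphocholine, was at 0.13 (standard error 0.22), and its low-NFMP steers spread from 484.0 to 908.6.

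**Figure D4:**
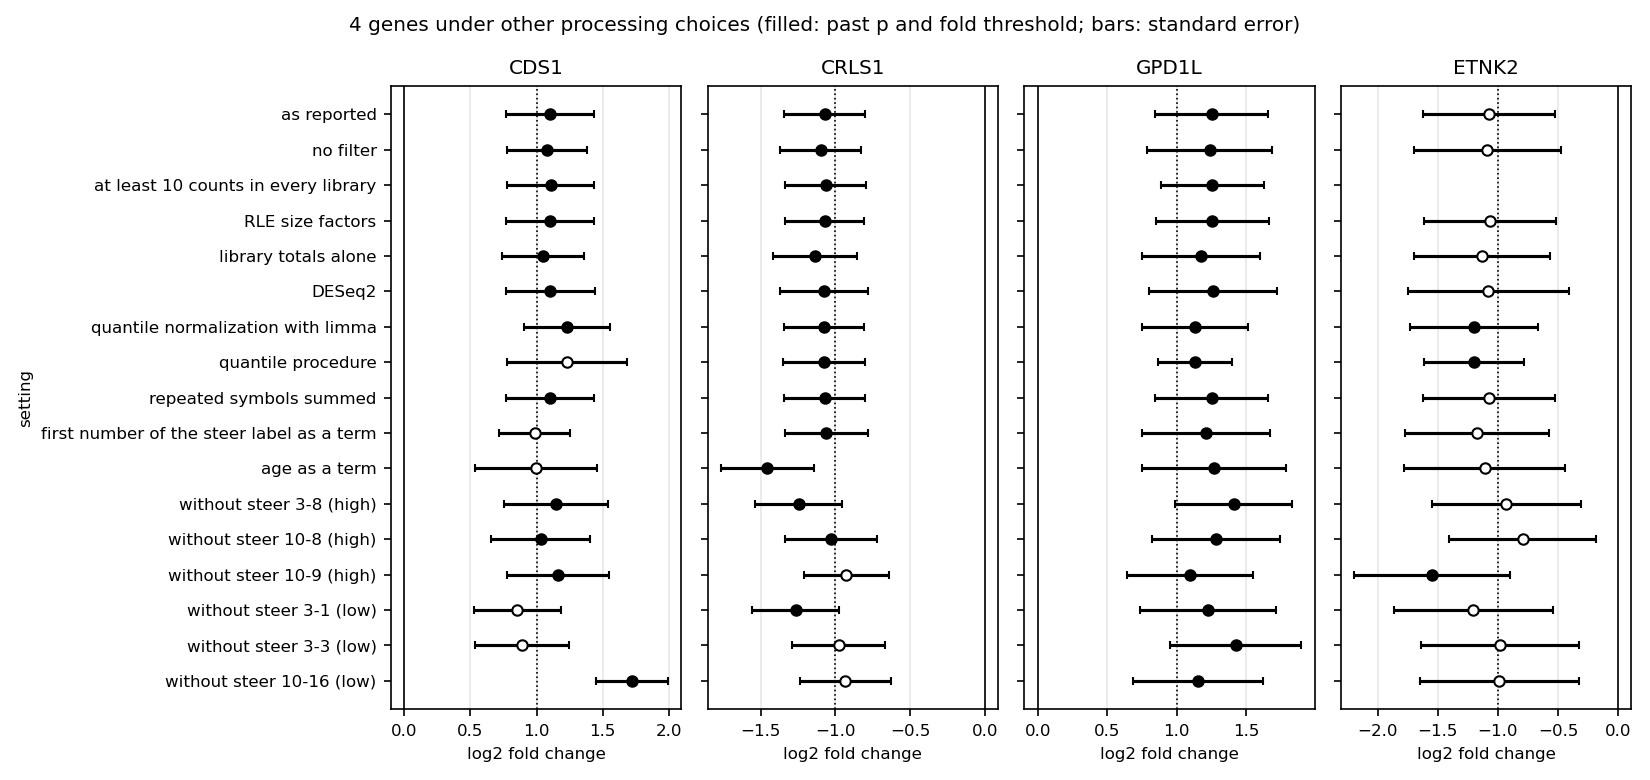
Log2 fold changes of CDS1, CRLS1, GPD1L and ETNK2 as reported and under 16 other settings (15 for ETNK2), with bars of 1 standard error. Filled points are past the p and fold change threshold. GPD1L is filled in each setting, CDS1 spans 0.86 to 1.72, and CRLS1 lies between -0.98 and -0.93, open, without steer 10-9, 3-3 or 10-16.

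A further 85 genes of phospholipid metabolism outside the list were examined, of which 78 were tested. They supply phosphatidic acid, choline and ethanolamine, transport and remodel cardiolipin, break phospholipids down or make ether lipids. None was past the threshold by edgeR, by DESeq2 or by limma after quantile normalization. By edgeR, 6 of the 78 (7.69%) had an unadjusted p below 0.05, against 11.5% of all tested rows, 3 of them with higher and 3 with lower levels in the high-NFMP group. This count was 14 without steer 3-8, 3 without steer 3-3, 1 without steer 3-1 and 3 with the label number as a term. The share of all rows with such a p was not counted in those fits, so these counts have no background beside them. The median log2 fold change of the 78 was 0.012.

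The 6 genes, picked out by this p, fall in different steps. STARD7, a phosphatidylcholine carrier to mitochondria, was at 2284 ± 276 against 1735 ± 247 normalized counts (SD, n = 3 each), with a log2 fold change of 0.40. The choline transporter SLC44A1 had a log2 fold change of 0.57 and the phospholipase PLA2G6 one of 0.88. Lower levels were found for the lysophospholipase D gene GDPD1 (-0.80), for the phospholipase gene ABHD3 (-0.51) and for AGPS (-0.64), a peroxisomal enzyme of ether lipid synthesis. AGPS was at 217.9, 142.2 and 203.6 normalized counts in the high-NFMP steers and at 331.1, 305.4 and 240.3 in the low-NFMP steers, without overlap, and had the smallest p of the 78 (0.0161, adjusted p = 0.303 by edgeR). Of the 25 tested genes of phosphatidic acid supply, which include GPD1, 0 had an unadjusted p below 0.05.

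**Figure D5:**
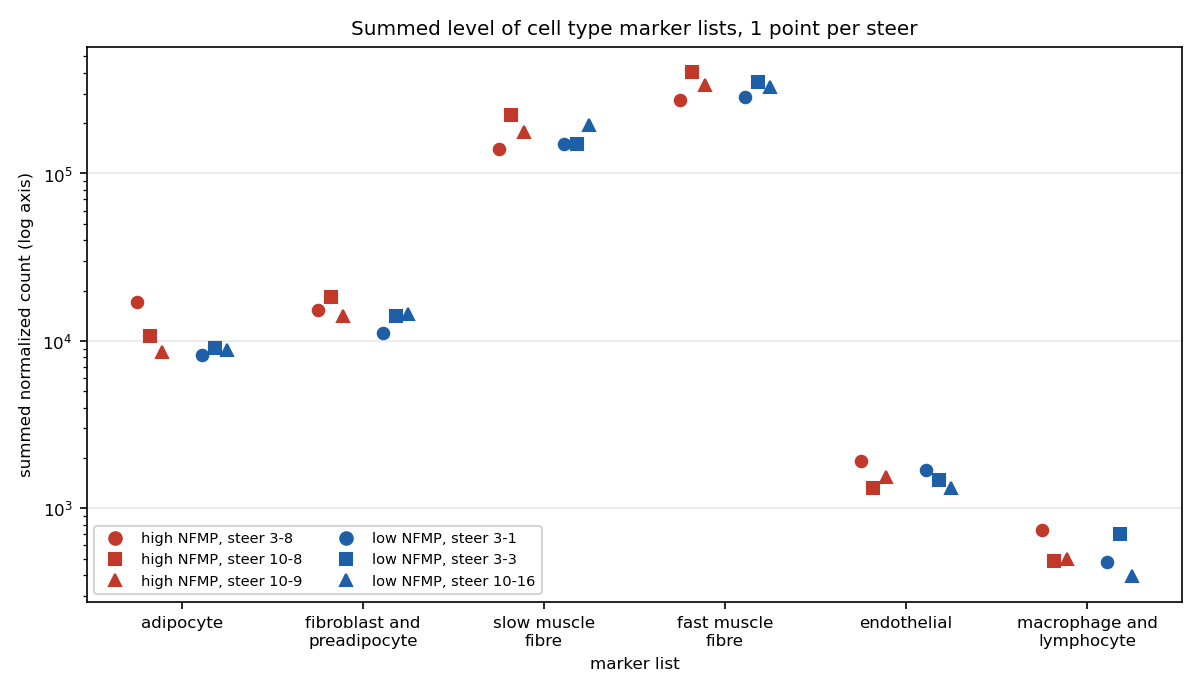
Summed normalized counts (log axis) of 6 lists of cell type markers in each steer, red for high NFMP and blue for low NFMP. The summed levels of the groups overlap in all 6 lists, and steer 3-8 has the highest adipocyte sum, 17064.

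Cell type markers bear on these values because any of the enzymes may come from several cell types. The ratio of the mean summed levels, high over low, was 1.40 for the adipocyte, 1.20 for the fibroblast and preadipocyte, 1.09 for the slow fibre, 1.05 for the fast fibre, 1.06 for the endothelial and 1.10 for the macrophage and lymphocyte list. The ranges overlapped between the groups in each list, and no marker was at 0 in all libraries. The only marker past the threshold was AIF1, a macrophage gene, at 116.5, 57.8 and 38.1 against 32.5, 48.1 and 22.2 normalized counts (log2 fold change 1.04, adjusted p = 0.388 by edgeR), and it was no longer past it without steer 3-8, 3-1 or 10-16, at 0.47, 1.00 or 0.83. With all steers kept, AIF1 also fell short of it with library totals alone (0.97), with both quantile fits (0.88) and with age as a term (0.46). An unadjusted p below 0.05 was found for 1 of 10 fibroblast and preadipocyte, 1 of 7 slow fibre, 0 of 8 fast fibre, 0 of 7 endothelial and 1 of 6 tested macrophage and lymphocyte markers. The slow fibre myosin light chain gene MYL3, picked out for this p, had a log2 fold change of -0.78 (unadjusted p = 0.00253 by edgeR), with 5511 ± 1483 normalized counts in the low-NFMP group against 3212 ± 194 (SD, n = 3 each). Of the 7 slow fibre markers, 4 had a positive and 3 a negative log2 fold change, with a median of 0.06. Without steer 3-8, the steer with the highest adipocyte sum, the log2 fold change of CRLS1 was -1.25 and that of ETNK2 was -0.93. The part of the levels of these 6 marker lists in the differences of CDS1, CRLS1, ETNK2 and GPD1L was not tested.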

How the data were processed

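Raw read counts per gene symbol, as deposited by the authors, were analysed for the LT of 6 steers, grouped by their labels. The libraries were made with a 3′ mRNA kit. The paper names Tophat2 with HTSeq in one place and Bowtie2 with unique and multiple alignments in another, and the submitters' processing notes name Bowtie2 and bedtools. Which of these made the deposited counts is not given in any source used here, nor is the handling of strand.

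In R 4.3.3, edgeR 4.0.16 was run on all rows (filterByExpr with minimum count 10 and minimum total 15, TMM normalization, robust dispersions, quasi-likelihood test, Benjamini-Hochberg adjustment over 15039 rows), and standard errors were derived from the F statistic. The biological coefficient of variation was 25.1%. Alternatives used DESeq2 1.42.0 and limma 3.58.1, other filters and scalings, and covariates, and each steer was left out in turn. The paper states quantile normalization but no transform or pseudocount. The quantile procedure here took log2(count + 1), quantile-normalized it and tested each gene under equal variance, which need not be the paper's calculation. Procedures were tested on simulated data. Ratios of 2 genes were compared with a two-sided exact permutation test over 20 assignments.

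The genes and lists were chosen with earlier results of these data known. Named genes are all listed members, other phospholipid and marker genes past the threshold and genes overlapping a called member; further genes are marked as picked out later. Gene overlaps came from the RefSeq table of ARS-UCD2.0, which is not the build of the paper, so no coordinates are given. TAFAZZIN, PLA2G5, GDPD2, LYPLAL2 and LPCAT2B were not matched by symbol and are not analysed here, nor is a row named TAZ, which may be TAFAZZIN under an older symbol but was not linked to it by the RefSeq table. PLAAT3 was counted under its older symbol PLA2G16. No sequences were used here. Labels do not number replicates, and the tests take single steers as the replicates. No source used here mentions molecular identifiers, so counted reads need not be separate molecules.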

Additional observations from a re-analysis of the deposited data

How the results depend on the processing

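Of the 31 genes, 3 were past the threshold with edgeR, and the count was between 2 and 4 in the 10 alternatives that kept all steers. With a steer left out it was between 1 and 4, the lowest without steer 3-3, when only GPD1L passed. Of all tested rows, between 2.33% and 4.33% were past the threshold in the 10 alternatives, and between 4.06% and 4.83% with a steer left out. The count at an unadjusted p below 0.05 was between 3 and 6 with a steer left out, against 3 in all steers, with 6 without steer 3-8 and 5 without steer 10-9. The share of all rows at this p was not counted in those fits. Of the other phospholipid genes, 2 passed with age as a term (DDHD1 and PLA2G6) and between 0 and 3 with a steer left out, the highest without steer 10-8. DESeq2 and the fit without a filter each gave 1 gene of the list an adjusted p below 0.05, CRLS1 (0.02 and 0.0231). Over all rows, the 586 past the threshold became 969 with no filter, 364 with at least 10 counts in every library and 350 with the quantile procedure, and the 103 at an adjusted p below 0.05 became 291 with DESeq2, 240 with no filter, 31 with age as a term and 0 with the quantile procedure.

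Some genes near a log2 fold change of 0 changed sign, and none of those was past the threshold in any fit. CDS2 was at -0.014 with no filter, -0.075 with library totals alone, -0.022 with quantile normalization (limma and quantile procedure), -0.084 with the label number and -0.17 with age as a term. PISD was at -0.016 with no filter, -0.063 with library totals and -0.0064 with the label number. PLD1 was at 0.0068 with both quantile fits and 0.013 with the label number. With age as a term PTPMT1 was at 0.16, PEMT at 0.031 and MBOAT2 at -0.12. With a steer left out the values ranged from -0.16 to 0.10 for CDS2, -0.086 to 0.30 for PGS1, -0.21 to 0.19 for PTPMT1, -0.13 to 0.13 for CEPT1, -0.34 to 0.073 for PCYT1A, -0.56 to 0.14 for PEMT, -0.065 to 0.42 for PTDSS1, -0.049 to 0.047 for PISD, -0.033 to 0.31 for LPCAT3, -0.066 to 0.42 for MBOAT2, -0.20 to 0.082 for PLD1 and -0.068 to 0.43 for GPCPD1. The cause was not tested. No paired analysis was possible because no label pairs single steers across the groups, and the label number shared by several steers was used as a term and for values within each number. ETNK2, LPCAT2, LPCAT4 and MBOAT2 had fewer than 25 counts in each library, and the part of counting error in their spread was not measured.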
